A study of Arabidopsis thaliana with 12 samples.

Results

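The loss of *IRE1A* in the *bli* background was examined by comparing *bli ire1a* seedlings directly with *bli* seedlings. The comparison took the 3 libraries labelled *bli ire1a* and the 3 labelled *bli*, 6 of the 12 libraries of the series, and they were chosen by genotype label and not by any measured value. RNA-Seq had been performed on whole seedlings of *Arabidopsis thaliana* accession Columbia, labelled day 12 (the methods of the study give another age), with 3 biological replicates of each of 4 genotypes. The groups used here were *bli ire1a* (labelled bli-1-/-ire1a-/-), *bli ire1b* (bli-1-/-ire1b-/-), *bli* (bli-1-/-) and the wild type (WT), all grown without a stress treatment on medium in plates. The *bli-1* mutation was therefore carried by both groups of the main comparison, and no *ire1a* single mutant was among the libraries used. The mutants were T-DNA insertion lines, 1 allele of each gene was used, and the double mutant came from a cross, so that loss of *IRE1A* and any other difference between these lines that arose or was inherited in the cross cannot be told apart. Whole seedlings hold many cell types, in which fewer cells of a type and less RNA per cell cannot be told apart either.

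Secreted and membrane proteins are folded in the endoplasmic reticulum (ER), and when unfolded proteins build up there the unfolded protein response (UPR) raises the genes for folding, secretion and degradation of such proteins. IRE1 is an ER membrane protein with a kinase and an RNase part. Its RNase removes a piece from the *bZIP60* mRNA, and the spliced mRNA encodes a transcription factor that enters the nucleus and raises UPR genes. A second arm runs through the membrane-bound factor bZIP28, which is released by proteases in the Golgi. Arabidopsis has the paralogs IRE1A and IRE1B. BLI binds CURLY LEAF, a Polycomb enzyme that marks histones at silenced genes.

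The 250 bases before the annotated starts of 4 lower genes of the ER and its vesicles are given first, because the letters of known ER stress elements stand in them. They were read from the TAIR10.1 reference genome on the strand of the gene. *BIP3* is an ER chaperone of the HSP70 family (chr1:2931851-2932100, minus strand). *PDIL1-2* is a protein disulfide isomerase (chr1:29126398-29126647, plus strand). AT1G18830, for which *SEC31A* is an annotated synonym, encodes a WD40 repeat protein of the COPII vesicle coat (chr1:6488983-6489232, plus strand). *SARA1A* encodes a small GTPase of the SAR1 family, which starts COPII vesicles (chr1:2964773-2965022, plus strand). Capitals mark matches, on either strand, to TGACGTG, to the ER stress element (ERSE, CCAAT followed by 10 bases and CACG) and to TCATCG.
*BIP3*: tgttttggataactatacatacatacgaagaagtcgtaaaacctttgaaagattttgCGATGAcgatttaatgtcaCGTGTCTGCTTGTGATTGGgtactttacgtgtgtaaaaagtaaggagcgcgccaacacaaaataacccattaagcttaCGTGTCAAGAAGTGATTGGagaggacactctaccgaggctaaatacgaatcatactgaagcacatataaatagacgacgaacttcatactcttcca
*PDIL1-2*: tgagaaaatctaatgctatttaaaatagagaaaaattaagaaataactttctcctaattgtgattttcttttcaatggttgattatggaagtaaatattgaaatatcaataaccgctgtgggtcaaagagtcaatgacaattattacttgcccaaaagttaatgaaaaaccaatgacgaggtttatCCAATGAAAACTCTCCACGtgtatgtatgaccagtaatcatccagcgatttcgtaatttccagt
AT1G18830: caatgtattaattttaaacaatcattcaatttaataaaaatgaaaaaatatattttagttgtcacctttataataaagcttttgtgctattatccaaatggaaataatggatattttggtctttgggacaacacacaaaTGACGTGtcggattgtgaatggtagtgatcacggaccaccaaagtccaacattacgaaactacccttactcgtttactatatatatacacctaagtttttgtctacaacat
*SARA1A*: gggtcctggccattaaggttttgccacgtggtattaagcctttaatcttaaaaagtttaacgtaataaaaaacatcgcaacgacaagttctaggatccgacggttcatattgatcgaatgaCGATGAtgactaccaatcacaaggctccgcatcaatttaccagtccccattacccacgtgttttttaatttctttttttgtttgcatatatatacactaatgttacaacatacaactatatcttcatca
The *BIP3* sequence held ERSE on the minus strand at 174 and 96 bases before the start and TCATCG at 193, and the *PDIL1-2* sequence held ERSE on the plus strand at 64. That of AT1G18830 held TGACGTG at 111 and that of *SARA1A* held TCATCG on the minus strand at 129. Each distance was counted from the leftmost base of the match. These are matches of letters only, and binding of a factor was not measured.

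The mutated genes were examined first. *IRE1A* (chr2:7617151-7621129) was 5.68, 5.57 and 4.46 FPKM (fragments per kilobase of transcript, scaled to the number of mapped fragments) in *bli ire1a*, against 22.9, 22.9 and 24.2 FPKM in *bli*. Fragments were still counted on the gene in *bli ire1a*, but each of its libraries was below each *bli* library, and the log2 fold change was -2.14 ± 0.09 (SE, limma, adjusted p = 2.12e-07). *IRE1B*, listed as *IRE1-1*, averaged 10.2 ± 0.7 FPKM in *bli ire1a* and 11 ± 0.3 FPKM in *bli* (SD, n = 3 each, log2 fold change -0.11, adjusted p = 0.47). *BLI* averaged 10.6 FPKM in *bli ire1a* and 10.9 FPKM in *bli*, against 17.3 FPKM in WT. Libraries of a genotype correlated at 0.944 or more, and the sums of FPKM lay between 972215 and 1098800. In 4 of the 12 libraries, WT replicates 1 and 2, *bli* replicate 2 and *bli ire1b* replicate 3, the highest correlation with another genotype was above the lowest within the genotype. For *bli* replicate 2 these were 0.957 and 0.952. From the steps between low values, the FPKM value of 1 fragment was 0.943, 1.45 and 1.43 times that of *bli* replicate 1 in *bli ire1a* replicates 1 to 3, and 1.06 and 1.82 times in *bli* replicates 2 and 3, a larger value meaning a shallower library.

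The test took 20645 of the 33557 genes listed, those whose mean over all 12 libraries reached 0.5 FPKM. In *bli ire1a*, 420 genes were lower than in *bli* (2.03% of those tested) and 417 were higher (2.02%), by a fold change of at least 2 and an unadjusted p of at most 0.05 from limma. These genes are called lower and higher below, and counts of called members of a list or family are to be read beside these shares. With the same fold change and p at most 0.05 after Benjamini-Hochberg adjustment, 329 genes (1.59%) were lower and 299 (1.45%) were higher. At that adjusted p and any fold, 1579 genes (7.65%) were lower and 1366 (6.62%) were higher. Without *bli* replicate 2 the last 2 counts were 871 and 864, and those of called genes 388 and 391. At any fold, which direction held more genes depended on the scaling, since 1227 were lower and 1762 higher after upper-quartile scaling, and 1351 were lower and 1428 higher after quantile normalization. All adjusted p-values below are from limma with this adjustment over the 20645 genes. The *bli ire1a* and *bli* libraries did not overlap for 396 of the 420 lower and 378 of the 417 higher genes, where 32.7% of all tested genes showed no overlap.

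Falls of over 4-fold numbered 102 and rises 76, and those of over 8-fold numbered 41 and 17. Among the 1645 genes with a mean of at least 100 FPKM over the 6 libraries, 33 were lower and 6 were higher. The *bli ire1a* and *bli* values had chosen these genes, so that their levels are a description. The median level of the lower genes was 2.55 FPKM in *bli ire1a*, 5.16 in *bli ire1b*, 7.89 in *bli* and 2.15 in WT. The median level of the higher genes was 3.87 FPKM in *bli ire1a*, 1.83 in *bli ire1b*, 1.35 in *bli* and 4.72 in WT. In both directions the median of *bli ire1a* lay between those of *bli* and WT, whereas the median over all tested genes was 12.4 FPKM in *bli ire1a* and 12.5 in *bli* and WT. With a pseudocount of 1 in place of 0.1, 197 genes were higher and 281 lower.

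**Figure D1:**
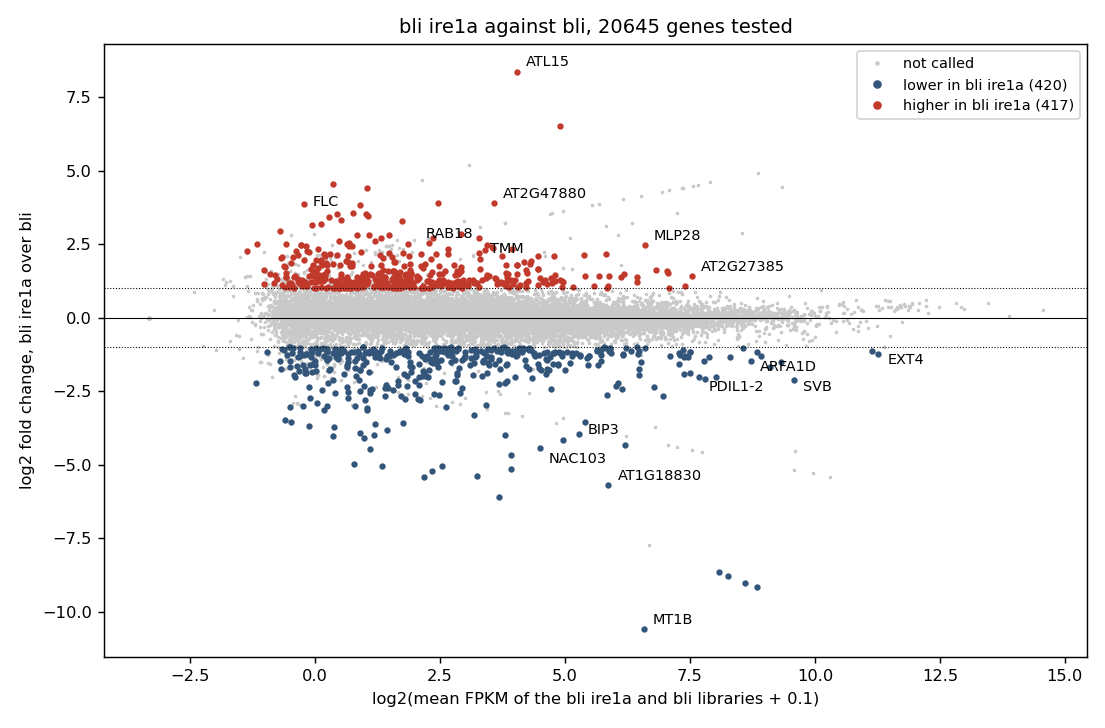
Each point is one of the 20645 genes tested, with the log2 of the mean FPKM of the 6 libraries plus 0.1 on the x axis and the log2 fold change of *bli ire1a* over *bli* on the y axis. Blue points are the 420 genes called lower and red points the 417 called higher, and dotted lines mark a fold change of 2. Points such as *MT1B* and *ATL15*, which were listed at 0 in all libraries of a group, have a position that depends on the pseudocount.

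Of the 10 UPR sensors and transcription factors tested, 5 were lower in *bli ire1a*, the same count in every alternative setting tried, and 0 were higher. The median log2 fold change of the 10 was -0.68, against 0.01 over all genes tested. Both the count and the median include *IRE1A*, whose fall followed from the genotype. The members not called had log2 fold changes between -0.16 and 0.12. Besides *IRE1A*, which is the gene mutated in *bli ire1a*, the lower genes were *bZIP60* and the 3 NAC factors of the list, *NAC103*, *NAC062* and *NAC089*. *NAC103*, a target of bZIP60, was 2.39, 1.60 and 1.75 FPKM in *bli ire1a*, against 43.8, 45.7 and 39.5 FPKM in *bli*. All 3 *bli ire1a* libraries were far below the lowest *bli* library, and the log2 fold change was -4.44 ± 0.19 (adjusted p = 1.92e-07). It averaged 37.7 FPKM in *bli ire1b* and 0.688 FPKM in WT.

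*bZIP60* was 87.7, 80.3 and 70.1 FPKM in *bli ire1a*, against 193, 206 and 181 FPKM in *bli*. The groups did not overlap (log2 fold change -1.29 ± 0.18, adjusted p = 9.49e-04). FPKM of a gene do not separate the spliced from the unspliced mRNA. *NAC062* and *NAC089*, which are membrane-bound factors released upon stress, fell by 1.19 each on the log2 scale, to means of 18.6 and 12.6 FPKM in *bli ire1a*, against 42.3 and 28.8 FPKM in *bli*. The mRNA levels of the factors of the other arm did not pass the test. FPKM do not show the release of bZIP28 from the membrane, so the activity of this arm was not tested. *bZIP28* averaged 18.4 FPKM in *bli ire1a* and 19.7 FPKM in *bli* (log2 fold change -0.10 ± 0.08, adjusted p = 0.462), and *bZIP17*, its close homolog, averaged 13 and 14.6 FPKM in *bli ire1a* and *bli* (log2 fold change -0.16, adjusted p = 0.147). *S2P*, the Golgi protease that the study names for the cleavage of bZIP28, averaged 4.19 FPKM in *bli ire1a* and 4.51 FPKM in *bli* (adjusted p = 0.669). *S1P*, another protease gene of the list, averaged 8.83 FPKM in *bli ire1a* and 8.08 FPKM in *bli* (adjusted p = 0.376).

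Among 11 ER chaperones and cochaperones, 2 were called lower and 7 were lower at any fold by adjusted p, where 7.65% of all genes tested were. The median log2 fold change of the 11 was -0.39. *BIP3* was 3.96, 5.24 and 4.81 FPKM in *bli ire1a*, against 76.0, 72.5 and 70.1 FPKM in *bli*. The groups were far apart (log2 fold change -3.94 ± 0.45, adjusted p = 3.25e-04), and the means in *bli ire1b* and WT were 53.6 and 0.664 FPKM. *ATERDJ3A*, an ER cochaperone with a J domain, was 8.18, 8.5 and 8.02 FPKM in *bli ire1a*, against 47.0, 42.4 and 44.0 FPKM in *bli*. It did not overlap between the groups (log2 fold change -2.42 ± 0.13), and it lies over a neighbouring gene, AT3G08960. The constitutive chaperones differed by less. *BIP1* and *BIP2*, the main BiP proteins of unstressed cells, had log2 fold changes of -0.39 and -0.32 (adjusted p = 0.0138 and 0.0171), *SHD*, the ER HSP90, had -0.40 (adjusted p = 2.63e-04), and AT4G16660, an HSP70 family protein, had -0.71 (adjusted p = 8.72e-06). *SDF2* and *ERDJ3B*, which work as partners of BiP, had log2 fold changes of 0.11 and -0.02.

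Disulfide bonds of secreted proteins are formed by protein disulfide isomerases, which are reoxidised by ERO1. Of the 15 such genes, 3 were called lower and 0 were called higher. At any fold by adjusted p, 7 were lower, where 7.65% of all genes tested were. *PDIL1-2* was 80.6, 80.1 and 85.6 FPKM in *bli ire1a*, against 325, 342 and 324 FPKM in *bli*. Its *bli ire1a* libraries agreed closely and were all below the *bli* libraries (log2 fold change -2.01 ± 0.06, adjusted p = 4.08e-09). *PDIL2-3* averaged 52.9 ± 5.7 FPKM in *bli ire1a* and 124 ± 4 FPKM in *bli* (SD, n = 3 each), and *ERO1* averaged 5.89 FPKM in *bli ire1a* and 19.9 FPKM in *bli*. *PDIL2-2* and *PDIL2-1* fell by 0.75 and 0.61 on the log2 scale, short of a fold change of 2. The members of the PDIL5 class and *PDIL1-4*, *PDIL1-5* and *PDIL1-6* lay between -0.22 and 0.24. None of the 6 genes of the calnexin and calreticulin cycle, which folds glycoproteins, was called, and their median was -0.16. *CNX1*, the ER lectin calnexin, was 186, 186 and 198 FPKM in *bli ire1a*, against 250, 240 and 235 FPKM in *bli* (log2 fold change -0.35, adjusted p = 0.0144).

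For ER-associated degradation, which moves misfolded proteins out of the ER to the proteasome, 0 of 13 genes were called in either direction. At any fold by adjusted p, 7 were lower and 1 was higher, where 7.65% and 6.62% of all genes tested were. The higher one did not pass in a fit of only the 6 libraries. The lower ones included *OS9*, a lectin that selects substrates (log2 fold change -0.76), *DER1* (-0.63) and the SEL1L homolog (-0.52), a partner of the HRD1 ubiquitin ligase. *OS9* was 22.6, 22.9 and 25.5 FPKM in *bli ire1a*, against 34.6, 42.9 and 43.2 FPKM in *bli*. All 3 *bli ire1a* libraries lay below those of *bli* (adjusted p = 8.55e-04). *CDC48*, the ATPase that extracts substrates, averaged 202 FPKM in *bli ire1a* and 211 FPKM in *bli* (adjusted p = 0.314).

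Proteins enter the ER through the Sec61 translocon, where oligosaccharyltransferase adds glycans. Of 18 genes for these complexes, 2 were lower, and both encode Sec61 subunits. AT1G29310, a SecY family alpha subunit, was 41.6, 40.7 and 44.9 FPKM in *bli ire1a*, against 96.5, 105 and 103 FPKM in *bli* (log2 fold change -1.26 ± 0.07, adjusted p = 1.34e-06). AT3G60540, a beta subunit, averaged 10.5 FPKM in *bli ire1a* and 33.9 FPKM in *bli* (-1.71 ± 0.32, adjusted p = 0.00536). In both genes the groups did not overlap. A more abundant alpha subunit, AT2G34250, averaged 151 FPKM in *bli ire1a* and 167 FPKM in *bli*, with a log2 fold change of -0.14. At any fold by adjusted p, 5 of the 18 were lower, where 7.65% of all genes tested were. The 5 became 2 without *bli* replicate 2 or without *bli ire1a* replicate 2.

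Vesicles leave the ER under a COPII coat. AT1G18830 was 2.53, 2.17 and 1.68 FPKM in *bli ire1a*, against 113, 119 and 112 FPKM in *bli*. No other gene of the 10 tested for COPII and SAR1 differed as much, and the log2 fold change was -5.70 ± 0.15 (adjusted p = 2.13e-09). It averaged 83.7 FPKM in *bli ire1b* and 0.161 FPKM in WT. *SARA1A* was 0.823, 1.44 and 0.884 FPKM in *bli ire1a*, against 34.4, 27.2 and 25.2 FPKM in *bli*. The groups were again far apart (log2 fold change -4.68 ± 0.33, adjusted p = 1.21e-05), with 13.1 FPKM in *bli ire1b*. The other members of the list showed smaller differences, and *SARA1B*, the more abundant SAR1 gene, averaged 178 FPKM in *bli ire1a* and 282 FPKM in *bli* (-0.66 ± 0.05, adjusted p = 1.99e-05). AT3G63460, another SEC31 homolog, averaged 56.1 FPKM in *bli ire1a* and 63.4 FPKM in *bli* (adjusted p = 0.194). AT4G21730, which the study calls *NSF* and which is annotated in TAIR10.1 as a transcribed pseudogene, was 6.20, 7.10 and 7.46 FPKM in *bli ire1a*, against 137, 143 and 139 FPKM in *bli*. It fell by 4.32 on the log2 scale (adjusted p = 2.25e-06).

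**Figure D2:**
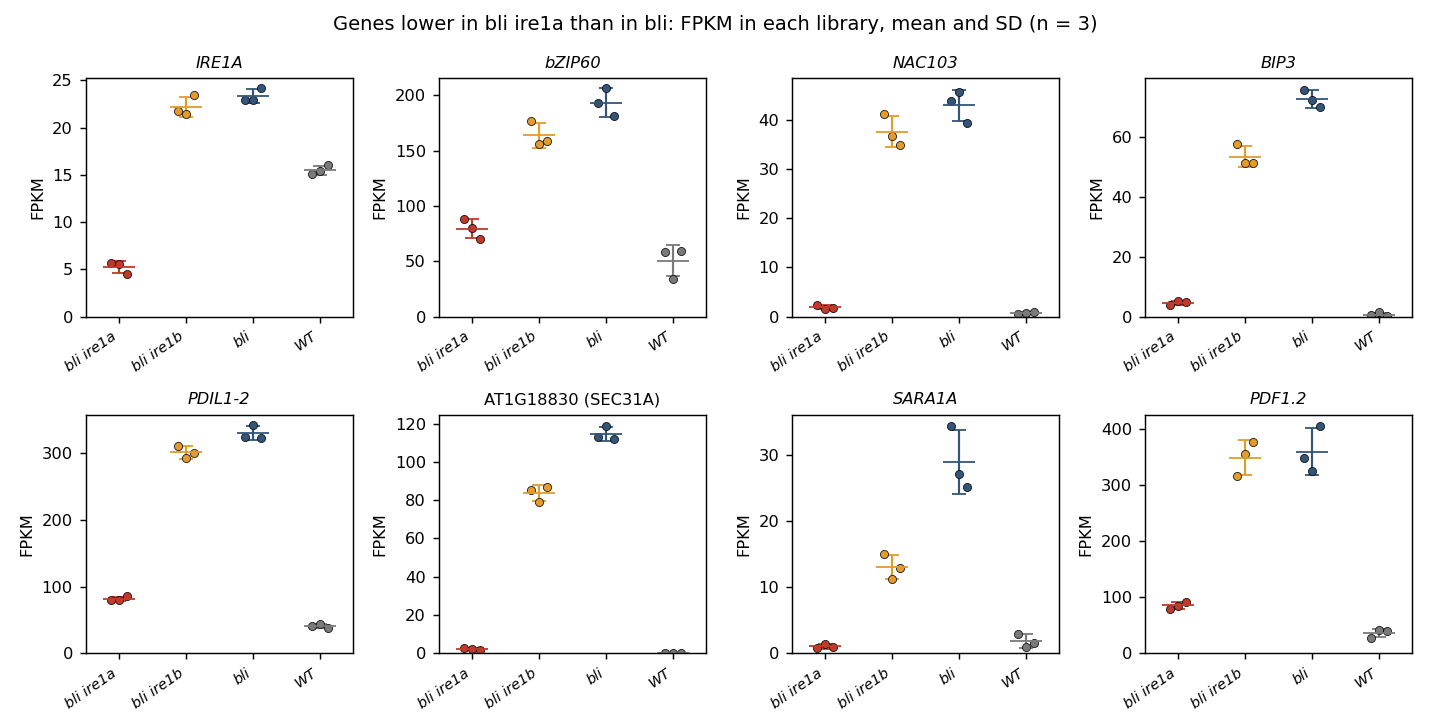
FPKM of 8 genes in each library, in the order *bli ire1a*, *bli ire1b*, *bli* and WT, with the mean (horizontal line) and SD of 3 libraries. In each panel the 3 *bli ire1a* points lie below the 3 *bli* points and closer to the WT points than to the *bli* points. For *IRE1A*, the mutated gene, they lie below the WT points as well.

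The letters searched in the printed promoters were also counted over all tested genes with a start annotated. ERSE was in 12 of 396 promoters of lower genes (3.03%), in 2 of 403 promoters of higher genes (0.496%) and in 171 of 19909 promoters of all genes tested (0.859%). ACGT, which is contained in TGACGTG, was in 60.1% of the lower, 46.7% of the higher and 44.6% of all promoters. TGACGTG was in 4.55%, 5.21% and 3.29%, and TCATCG in 5.05%, 5.46% and 6.37% of the same sets. ERSE-II (ATTGG, 1 base and CCACG) was in 0 promoters of the lower and higher genes and in 0.0753% of all. In the 34 promoters of genes lower by over 8-fold, ERSE and TGACGTG were in 3 each (8.82%), TCATCG in 5 (14.7%), ACGT in 21 (61.8%) and ERSE-II in 0. These shares are descriptions and were not tested. The 12 lower genes with ERSE included *BIP3* and AT3G60540 with 2 matches each, *PDIL1-2*, *ARFA1D* and *BI1*. The promoters of *NAC103* and *ATERDJ3A* held none of these letters other than ACGT.

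The deepest falls outside the ER lists included a family of unknown function. Of 19 genes annotated with the domain DUF295, 7 were lower and 0 higher, where 2.03% and 2.02% of all genes tested were. AT5G53240 was 0.163, 0 and 0.247 FPKM in *bli ire1a*, against 8.53, 8.81 and 8.82 FPKM in *bli*. AT5G55270 was 0.109, 0.840 and 0.331 FPKM in *bli ire1a*, against 18.3, 19.6 and 17 FPKM in *bli*. Every *bli ire1a* library was far below every *bli* library, with log2 fold changes of -5.40 and -5.38. The 2 genes averaged 8.43 and 17.7 FPKM in *bli ire1b* and 0 and 0.177 FPKM in WT. Similar falls were seen in AT5G53230, AT5G54560, AT1G30170 and AT4G13680, with means of 0.1 to 0.434 FPKM in *bli ire1a* and of 3.39 to 9.69 FPKM in *bli*. *NATA1*, an acetyltransferase that acts on ornithine, was 2.3, 2.36 and 6.02 FPKM in *bli ire1a*, against 60.9, 51.2 and 64.4 FPKM in *bli* (log2 fold change -4.15 ± 0.42, adjusted p = 1.45e-04). AT1G17960, annotated as a threonyl-tRNA synthetase, averaged 1.56 FPKM in *bli ire1a* and 25.9 FPKM in *bli* (-4.0). AT4G05370 averaged 0.321 FPKM in *bli ire1a* and 11.1 FPKM in *bli* (-5.03), and AT1G21528 was 3.84, 0 and 0 FPKM in *bli ire1a*, against 23.4, 16.8 and 32.7 FPKM in *bli*, with an adjusted p of 0.00428 that became 0.0528 in a fit of only the 6 libraries.

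Some genes were listed at 0 in a whole group and are given without a fold change. *MT1B*, a metallothionein gene (chr5:22971713-22972690), was listed at 0 in all 3 *bli ire1a* libraries, against 53.7, 283 and 235 FPKM in *bli*, and averaged 146 FPKM in *bli ire1b* and 142 FPKM in WT. The F-box gene AT3G12840 was also at 0 in *bli ire1a*, against 1.99, 4.26 and 3.39 FPKM in *bli*. AT3G45851 and ATCG00960 were at 0 in *bli ire1a*, *bli ire1b* and WT, but reached 1184, 1154 and 0 FPKM and 1288, 0 and 1476 FPKM in *bli*. A *bli* library was at 0 in each of them as well, so that the groups overlapped.

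The largest falls in FPKM included abundant transcripts of the cell wall, the surface and defence. *EXT4*, a cell wall extensin, was 1719, 1584 and 1162 FPKM in *bli ire1a*, against 3259, 3796 and 3261 FPKM in *bli* (log2 fold change -1.22 ± 0.16, adjusted p = 7.6e-04). *EARLI1*, a proline-rich lipid transfer family protein, averaged 1405 FPKM in *bli ire1a* and 3111 FPKM in *bli* (-1.14 ± 0.14). *SVB*, a gene with the domain DUF538, was 304, 271 and 280 FPKM in *bli ire1a*, against 1229, 1306 and 1208 FPKM in *bli*. In each of the 3 genes the groups did not overlap, and *SVB* had the largest change of them (-2.13 ± 0.09, adjusted p = 1.65e-07). *ARFA1D*, a small GTPase of the ARF family of vesicle traffic, was 219, 224 and 234 FPKM in *bli ire1a*, against 588, 614 and 659 FPKM in *bli* (-1.46 ± 0.06, adjusted p = 1.45e-07). *SVB*, *ARFA1D* and *EARLI1* overlap other annotated genes, and whether strand was used in counting is not given in the sources used here.

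Jasmonate genes were lower in part. Jasmonate is a lipid hormone of the response to wounding, and 7 of 19 genes of its synthesis and response were lower and 0 higher, with a median log2 fold change of -0.92. *LOX2*, a lipoxygenase of jasmonate synthesis, was 235, 335 and 219 FPKM in *bli ire1a*, against 812, 958 and 735 FPKM in *bli*. *AOC2*, an allene oxide cyclase of the same pathway, was 316, 308 and 220 FPKM in *bli ire1a*, against 623, 717 and 552 FPKM in *bli*. The groups were apart in both genes, and the log2 fold changes were -1.68 ± 0.20 and -1.18 ± 0.16 (adjusted p = 3.72e-04 and 8.27e-04). The response genes *PDF1.2*, *VSP1*, *JAZ10*, *TAT3* and *JAZ7* were lower as well, but *AOS*, *OPR3* and *VSP2* of the same list had adjusted p of 0.608, 0.409 and 1.0. The adjusted p of *TAT3* ran to 0.103 and that of *JAZ7* to 0.143 under other settings. At any fold by adjusted p, 7 of the 19 were lower, where 7.65% of all genes tested were. The 7 became 4 without *bli ire1a* replicate 3 or without *bli* replicate 2.

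Defensins and protease inhibitors, small proteins against microbes and herbivores, were lower in 10 of 36 tested genes and higher in 1. Of all genes tested, 2.03% were lower and 2.02% higher. *PDF1.2* was 79.4, 85.0 and 92.2 FPKM in *bli ire1a*, against 349, 326 and 407 FPKM in *bli*. The 2 sets of libraries were apart (log2 fold change -2.07 ± 0.15, adjusted p = 1.16e-05), and the means were 350 FPKM in *bli ire1b* and 36 FPKM in WT. *PDF1.3* averaged 105 FPKM in *bli ire1a* and 416 FPKM in *bli* (-2.01), *PDF1.2c* averaged 24.1 and 110 FPKM in *bli ire1a* and *bli* (-2.23), and *UPI*, a serine protease inhibitor, averaged 35.9 and 142 FPKM in *bli ire1a* and *bli* (-1.96). The paralogs of *PDF1.2* are close in sequence, so reads could be split between them.

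Of 16 genes of salicylic acid, a hormone of defence against pathogens that feed on living tissue, 1 was lower and 1 was higher. Over all genes tested the shares were 2.03% and 2.02%, and counts of 1 are not read as a difference from them. *PR5*, a thaumatin-like pathogenesis protein, was 31.4, 29.5 and 33.8 FPKM in *bli ire1a*, against 9.29, 9.34 and 6.46 FPKM in *bli*. It rose without overlap of the groups (log2 fold change 1.92 ± 0.14, adjusted p = 1.31e-05). *PR1* was 16.1, 27.3 and 64.1 FPKM in *bli ire1a*, against 35, 10.7 and 13.5 FPKM in *bli*, and its groups overlapped (adjusted p = 0.433). *SARD1*, a transcriptional activator of salicylic acid synthesis, averaged 4.2 FPKM in *bli ire1a* and 8.64 FPKM in *bli*, but its adjusted p of 0.0347 ran to 0.118 under other settings.

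Of 14 genes for surface lipids and lipid transfer, 3 were lower and 0 higher, where 2.03% and 2.02% of all genes tested were. All 3 were lipid transfer proteins. *LTP2* was 334, 335 and 315 FPKM in *bli ire1a*, against 891, 1071 and 880 FPKM in *bli* (log2 fold change -1.52 ± 0.10, adjusted p = 6.72e-06). *LTP4* was 4.02, 10.4 and 5.78 FPKM in *bli ire1a*, against 56.8, 112 and 62.9 FPKM in *bli* (-3.54 ± 0.48, adjusted p = 8.53e-04). *LTP3* was 8.33, 17.3 and 23.4 FPKM in *bli ire1a*, against 68.3, 136 and 88.5 FPKM in *bli* (-2.64 ± 0.38, adjusted p = 0.0013). The groups did not overlap in any of them. The wax synthesis genes *CER1*, *CER4* and *CER6* had log2 fold changes of -0.57, -0.53 and -0.28. Other lipid transfer genes went the other way, and AT4G22505, AT4G22513, AT4G22517 and AT4G22520, annotated as neighbours on chromosome 4, rose by 1.2 to 2.15 on the log2 scale. The adjusted p of AT4G22505 became 0.0518 without *bli* replicate 3, and that of AT4G22520 became 0.0548 in a fit of only the 6 libraries. In the triterpene gene clusters 3 of 6 genes were lower, among them *MRN1*, the marneral synthase, which averaged 0.351 FPKM in *bli ire1a* and 2.62 FPKM in *bli* (-2.75 ± 0.47, adjusted p = 0.00346).

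Of 13 genes for oxidative stress and cell death, 3 were lower, where 2.03% of all genes tested were. *BI1*, the Bax inhibitor, an ER membrane protein that protects from cell death, was 84.8, 96.1 and 101 FPKM in *bli ire1a*, against 209, 213 and 231 FPKM in *bli*. The groups did not overlap (log2 fold change -1.22 ± 0.08, adjusted p = 5.06e-06). *RNS1*, a secreted ribonuclease, averaged 3.61 FPKM in *bli ire1a* and 14.0 FPKM in *bli* (-1.95, adjusted p = 0.002). The third was AT2G21640, annotated as a marker for oxidative stress response, with a log2 fold change of -1.04. *CAT3*, a catalase, was not among the called genes and averaged 2283 FPKM in *bli ire1a* and 3545 FPKM in *bli* (-0.64, adjusted p = 0.00122). Of 7 senescence genes 1 was lower, *DIN2*, a dark-induced glucosidase, with means of 0.208 FPKM in *bli ire1a* and 4.12 FPKM in *bli* (-3.97, adjusted p = 0.0011). Of 11 heat shock genes 1 was lower, *HSFA2*, at 1.5, 1.46 and 0.715 FPKM in *bli ire1a*, against 7.44, 7.64 and 2.11 FPKM in *bli*, and its adjusted p ran to 0.149 under other settings.

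By product name, NAC factors were lower in 10 of 67 tested genes and higher in 0, WRKY factors in 7 of 58 and higher in 1, and AP2/ERF factors in 8 of 71 and higher in 4. The 8 became 3 without *bli ire1a* replicate 3, and the 7 WRKY genes became 4 with a pseudocount of 1. Besides the 3 NAC genes of the UPR, *NAC044* averaged 2.04 FPKM in *bli ire1a* and 9.31 FPKM in *bli* (log2 fold change -2.19, adjusted p = 5.94e-04), and *NAC047* averaged 25.5 and 64.0 FPKM in *bli ire1a* and *bli* (-1.31, adjusted p = 1.21e-04). *WRKY57* was 13.6, 16.3 and 14.4 FPKM in *bli ire1a*, against 39.5, 38.8 and 33.1 FPKM in *bli*. It did not overlap between the groups (-1.32 ± 0.08, adjusted p = 5.46e-06). All of these families hold shares of lower genes above the 2.03% of all genes tested, which was not tested as a difference.

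**Figure D3:**
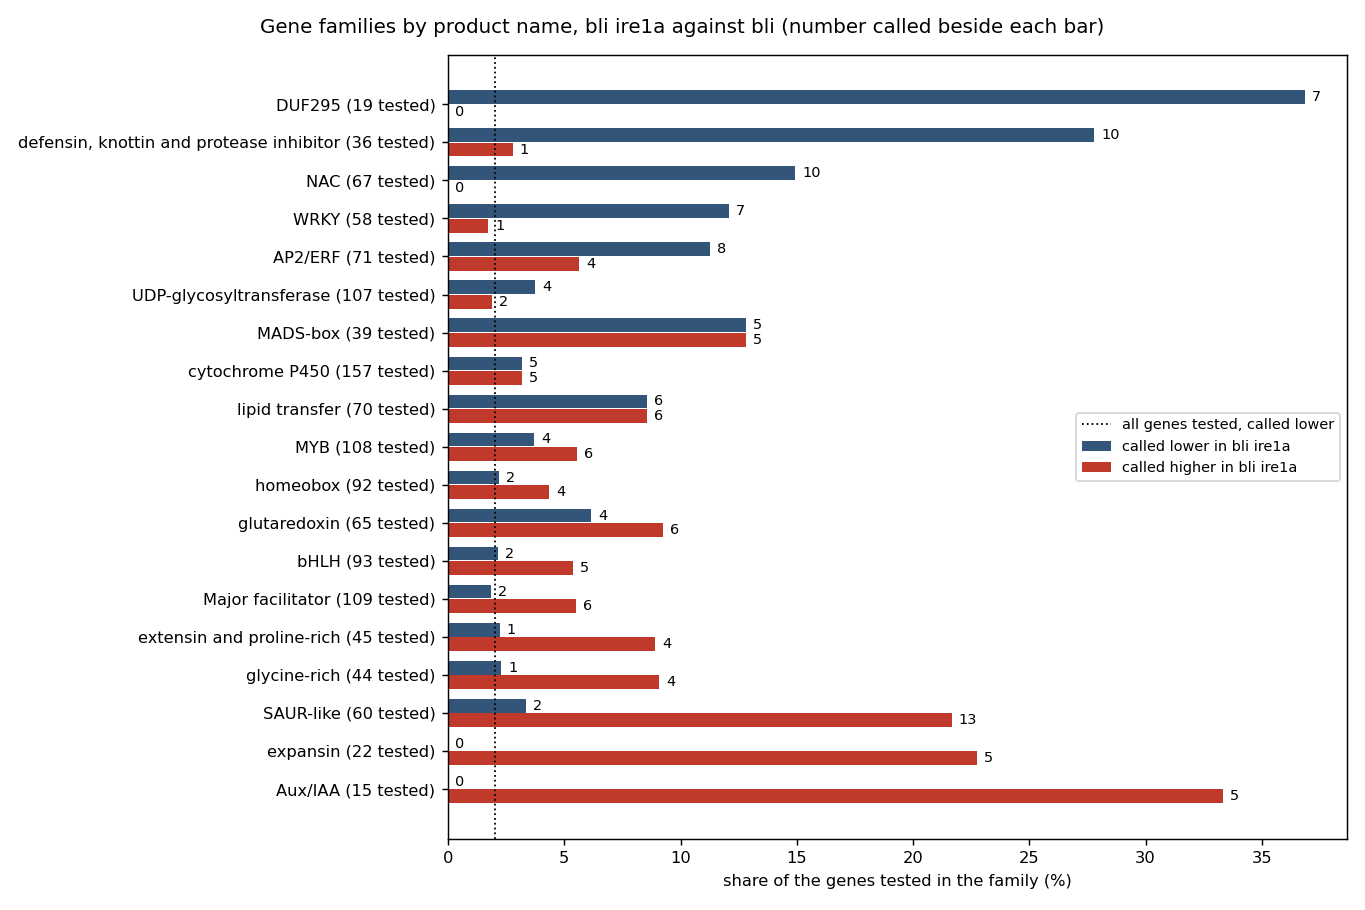
Share of the tested genes of each family that were called lower (blue) or higher (red) in *bli ire1a* against *bli*, with the number of genes beside each bar. Families with at least 10 genes tested and at least 5 called are shown, and the dotted line is the 2.03% of all genes called lower, close to the 2.02% called higher. DUF295 and the defensins stand at the top for lower genes, and Aux/IAA, expansin and SAUR-like genes at the bottom for higher genes.

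Among the rises, *ATL15*, a RING finger ubiquitin ligase gene (chr1:7949476-7950900), was 32.5, 35.1 and 30.5 FPKM in *bli ire1a*, and it was listed at 0 in all 3 *bli* libraries. It averaged 21.5 FPKM in *bli ire1b* and 22.3 FPKM in WT, so that *bli* was the genotype without a value. Its overlapping neighbour AT1G22510 was 10.3, 8.86 and 7.35 FPKM in *bli ire1a*, against 1.58, 1.12 and 1.15 FPKM in *bli*, and rose by 2.69 ± 0.19 on the log2 scale (adjusted p = 9.19e-06). The next genes on either side did not pass the test, since AT1G22490 had an adjusted p of 0.0844 and AT1G22520 of 0.49.

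The glutaredoxin gene AT2G47880 was 19, 21.8 and 25.5 FPKM in *bli ire1a*, against 1.94, 1.55 and 0.877 FPKM in *bli*. All *bli ire1a* libraries were above all *bli* libraries (log2 fold change 3.89 ± 0.39, adjusted p = 1.46e-04), with means of 2.95 FPKM in *bli ire1b* and 33.0 FPKM in WT. The gene overlaps AT2G47885. *PRB1*, a basic pathogenesis-related protein, was 13.7, 5.03 and 11.8 FPKM in *bli ire1a*, against 0.139, 1.18 and 0.752 FPKM in *bli* (3.89 ± 0.57, adjusted p = 0.00141). *CYP82C4*, a cytochrome P450 of coumarin synthesis under iron limitation, was 1.72, 2.60 and 3.13 FPKM in *bli ire1a*, against 0.293, 0.0388 and 0.200 FPKM in *bli* (3.31 ± 0.41, adjusted p = 5.06e-04). The groups did not overlap in either gene.

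The largest rises in FPKM included *MLP28*, a major latex protein-like gene, which was 192, 161 and 139 FPKM in *bli ire1a*, against 40.7, 25.1 and 25.2 FPKM in *bli* (log2 fold change 2.45 ± 0.21, adjusted p = 3.92e-05). AT2G27385, of the pollen allergen and extensin family, was 237, 288 and 285 FPKM in *bli ire1a*, against 102, 106 and 98.6 FPKM in *bli* (1.40 ± 0.11, adjusted p = 2.1e-05). AT4G29020, annotated as a glycine-rich protein, was 170, 173 and 168 FPKM in *bli ire1a*, against 57.1, 57.2 and 51.2 FPKM in *bli* (1.63 ± 0.08, adjusted p = 1.27e-06). WT means of the 3 genes were 161, 267 and 157 FPKM, and *bli ire1a* and *bli* did not overlap in any of them. The gibberellin-regulated genes AT1G22690 and *GASA6*, the peptide gene *RGF9* and the cell wall protein gene *DGR2* also rose, by 1.58, 1.02, 1.51 and 1.09 on the log2 scale.

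Genes of the response to abscisic acid and cold, which protect cells from drying and freezing, were higher in 7 of 24 and lower in 0. Of all genes tested 2.02% were higher and 2.03% lower. The median log2 fold change of the 24 was 0.85. *RAB18*, a dehydrin, was 14.4, 18.8 and 21.4 FPKM in *bli ire1a*, against 3.10, 2.68 and 3.87 FPKM in *bli*. All 3 *bli ire1a* libraries lay above those of *bli* (2.46 ± 0.31, adjusted p = 6.45e-04), and the means were 1.83 FPKM in *bli ire1b* and 18.7 FPKM in WT. *KIN1* was 20.7, 43.8 and 54.5 FPKM in *bli ire1a*, against 13.4, 13.3 and 21 FPKM in *bli* (1.23 ± 0.32, adjusted p = 0.0261), and its lowest *bli ire1a* value was just below its highest *bli* value. *GolS2*, *GolS3*, *COR15A*, *NCED3* and *HAI2* were the other called genes, and of these *COR15A*, *NCED3* and *HAI2* did not pass adjusted p (0.125, 0.0969 and 0.117). The adjusted p of *GolS2*, 0.0374, was above 0.05 in 9 of 15 alternatives and ran to 0.127. *COR47*, the most abundant member, averaged 597 FPKM in *bli ire1a* and 544 FPKM in *bli* (adjusted p = 0.558). The number called was 3 without *bli ire1a* replicate 3, 4 without *bli* replicate 2 or 3, and 10 without *bli ire1a* replicate 1.

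SAUR proteins promote cell expansion, and genes of this auxin-induced class were higher in 13 of 60 and lower in 2. Of all genes tested 2.02% were higher and 2.03% lower. *SAUR22* averaged 3.60 FPKM in *bli ire1a* and 0.373 FPKM in *bli* (log2 fold change 3.46, adjusted p = 0.00631). Aux/IAA genes, which encode repressors of auxin response and are themselves induced by auxin, were higher in 5 of 15 and lower in 0, beside the same shares. *SHY2* was 25.3, 19.7 and 19 FPKM in *bli ire1a*, against 9.05, 6.87 and 10.07 FPKM in *bli* (1.29 ± 0.15, adjusted p = 3.18e-04). *IAA29* was 4.74, 3.93 and 5.34 FPKM in *bli ire1a*, against 0.798, 0.169 and 1.16 FPKM in *bli* (2.82 ± 0.44, adjusted p = 0.00204). In neither of them did the groups overlap, although *SHY2* overlaps AT1G04230.

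Expansins loosen cell walls, and 5 of 22 were higher and 0 lower, where 2.02% and 2.03% of all genes tested were. *EXPA8* was 26.2, 41.7 and 31.5 FPKM in *bli ire1a*, against 14.0, 8.35 and 8.97 FPKM in *bli*. The 2 sets of libraries were apart (log2 fold change 1.67 ± 0.23, adjusted p = 9.63e-04), and *bli ire1a* stayed below the WT mean of 90.8 FPKM. *EXLB1*, *EXPA16*, *EXPB1* and *EXPA11* rose by 1.48, 1.82, 1.17 and 1.03 on the log2 scale. With a pseudocount of 1 only 3 of these expansins were called. In the list of cell wall growth, with 21 genes of expansins, xyloglucan enzymes and cellulose synthases, 2 were called higher. At any fold by adjusted p, 9 were higher, where 6.62% of all genes tested were. The 2 became 1 without *bli* replicate 2 and 4 without *bli* replicate 1. *CESA1* and *CESA3*, the cellulose synthases of primary walls, had log2 fold changes of 0.07 and 0.19.

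None of 27 photosynthesis genes was called, but 17 were higher at any fold by adjusted p, where 6.62% of all genes were, and the median log2 fold change was 0.37. The number was 5 when only the 6 libraries were fitted. *LHCB2.3*, a light-harvesting protein of photosystem II, was 1357, 1682 and 1345 FPKM in *bli ire1a*, against 869, 691 and 729 FPKM in *bli* (0.94 ± 0.12, adjusted p = 5.62e-04). *LHCA1*, of photosystem I, was 5865, 5974 and 5393 FPKM in *bli ire1a*, against 4053, 3409 and 3892 FPKM in *bli* (0.60 ± 0.08, adjusted p = 0.00104). *RBCS1A*, the main small subunit of Rubisco, averaged 15306 FPKM in *bli ire1a* and 14743 FPKM in *bli* (0.05, adjusted p = 0.701). The 7 genes taken as markers of green tissue summed to between 70602 and 78459 FPKM in *bli ire1a* and between 59727 and 65521 FPKM in *bli*, with a median log2 fold change of 0.35 and 0 called. The part of the green tissue share in these differences was not tested.

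Of 47 histone genes, 31 were higher at any fold by adjusted p, where 6.62% of all genes tested were. The count of 31 was 24 to 32 under the other settings. The median log2 fold change was 0.39, although only 2 were called higher and 2 lower. Of 15 cell cycle genes 0 were called and 3 were higher at any fold by adjusted p, against the same 6.62% of all genes tested. Among the 3 was *SYP111* (KNOLLE, which acts at the forming cell plate). It was 57.6, 54.8 and 56.6 FPKM in *bli ire1a*, against 33.8, 45.4 and 31.8 FPKM in *bli* (0.62 ± 0.15, adjusted p = 0.0165). The adjusted p became 0.0513 without *bli ire1a* replicate 1, 0.0562 without *bli* replicate 1 and 0.0621 without *bli* replicate 3, and the number of higher cell cycle genes became 0 without *bli* replicate 1.

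In the stomatal lineage, which forms the pores of the leaf surface by asymmetric divisions, 7 of 13 genes were higher and 0 lower. Of all genes tested 2.02% were higher and 2.03% lower. The median log2 fold change of the 13 was 1.17. This list was added after the values had been seen. *TMM*, a receptor-like protein that sets the spacing of stomata, was 17.9, 13.3 and 16.7 FPKM in *bli ire1a*, against 2.89, 4.21 and 3.07 FPKM in *bli*. The groups did not overlap (2.21 ± 0.17, adjusted p = 2.04e-05), and the means were 6.56 FPKM in *bli ire1b* and 18.8 FPKM in WT. *SPCH*, the transcription factor that starts the lineage, was 12.8, 7.94 and 9.29 FPKM in *bli ire1a*, against 3.67, 5.07 and 2.40 FPKM in *bli* (1.44 ± 0.24, adjusted p = 0.0026). *EPF2*, a peptide that limits entry into the lineage, was 7.93, 8.07 and 7.16 FPKM in *bli ire1a*, against 1.22, 3.32 and 1.57 FPKM in *bli* (2.0 ± 0.31, adjusted p = 0.00181). *EPF1*, *BASL*, *SDD1* and AT4G31805 were also higher. *MUTE* and *FAMA*, which act later in the lineage, were not called, with log2 fold changes of 1.40 (adjusted p = 0.285) and 0.49 (adjusted p = 0.0224).

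**Figure D4:**
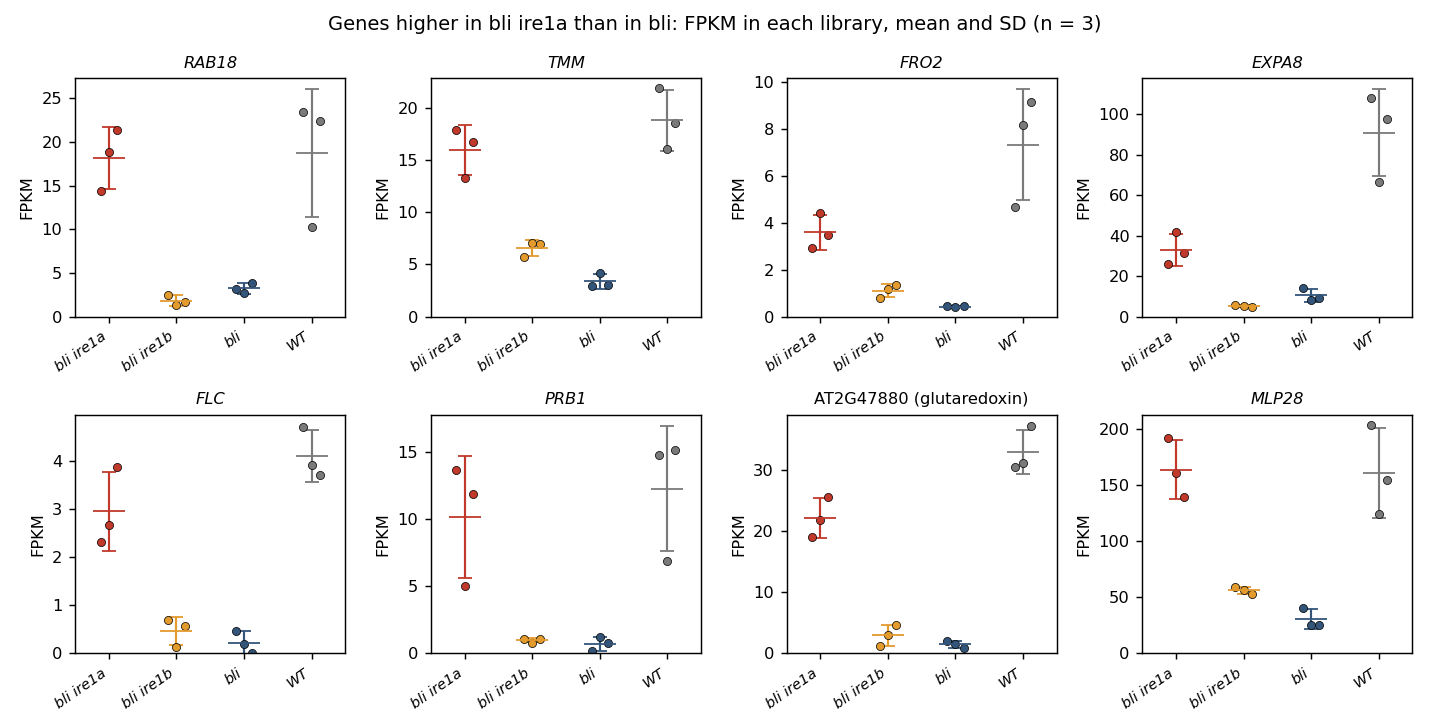
FPKM of 8 genes in each library, in the order *bli ire1a*, *bli ire1b*, *bli* and WT, with the mean (horizontal line) and SD of 3 libraries. In each panel the 3 *bli ire1a* points lie above the 3 *bli* points. In several panels, such as those of *EXPA8*, *FRO2*, *TMM* and AT2G47880, the 3 *bli ire1a* points lie below the WT mean.

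Of 14 iron genes 3 were higher and 0 lower, where 2.02% and 2.03% of all genes tested were. *FRO2*, the root ferric chelate reductase, was 2.93, 4.41 and 3.48 FPKM in *bli ire1a*, against 0.449, 0.393 and 0.434 FPKM in *bli* (log2 fold change 2.80 ± 0.27, adjusted p = 1.24e-04). *IRT1*, the iron transporter of the root epidermis, was 12.4, 24 and 21.6 FPKM in *bli ire1a*, against 4.87, 1.79 and 4.47 FPKM in *bli* (2.42 ± 0.52, adjusted p = 0.0109). Both were without overlap and below the WT means of 7.34 and 47.1 FPKM. *FIT*, the factor that drives these genes, averaged 3.90 FPKM in *bli ire1a* and 3.48 FPKM in *bli* (adjusted p = 0.736). The third higher gene was *BHLH100*. Its adjusted p of 0.0363 was above 0.05 in 7 of 15 alternatives and ran to 0.1225. The 14 root markers, which include *IRT1*, were 0 lower and 2 higher, with a median log2 fold change of -0.02, and summed to between 87.2 and 136 FPKM in *bli ire1a* and between 79.8 and 119 FPKM in *bli*. The part of root tissue in these values was not tested.

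Of 12 flowering and meristem genes 4 were lower and 2 higher, where 2.03% and 2.02% of all genes tested were. The 4 became 2 when any of the *bli ire1a* libraries or *bli* replicate 1 or 2 was left out. At any fold by adjusted p, 2 were lower and 2 higher, where 7.65% and 6.62% of all genes tested were. The called gene *AP3* did not pass adjusted p (0.116). *SEP3*, a MADS-box factor of the flower, was 13.5, 12.8 and 7.37 FPKM in *bli ire1a*, against 34.2, 29.8 and 33.8 FPKM in *bli* (log2 fold change -1.58 ± 0.26, adjusted p = 0.00274). *FT*, the mobile flowering signal, was 4.84, 4.29 and 4.77 FPKM in *bli ire1a*, against 10.7, 8.99 and 9.30 FPKM in *bli* (-1.04 ± 0.25, adjusted p = 0.0192). *FLC*, a MADS-box repressor of flowering, was 2.31, 2.66 and 3.86 FPKM in *bli ire1a*, against 0.468, 0.192 and 0 FPKM in *bli* (3.55 ± 0.60, adjusted p = 0.00317). In these 3 genes the groups did not overlap. *MAF5*, a close homolog of *FLC*, averaged 7.70 FPKM in *bli ire1a* and 3.38 FPKM in *bli* (1.19, adjusted p = 0.00222). *SOC1*, listed as *AGL20*, a flowering gene of the same list, did not pass the test (adjusted p = 0.717, above 0.05 in 15 of 15 alternatives). The meristem genes *STM* and *KNAT1* had log2 fold changes of -0.15 and -0.30 (adjusted p = 0.616 and 0.279). None of 10 clock genes was called, and *PRR5*, the clock gene that differed most, was 25.2, 20.8 and 19.5 FPKM in *bli ire1a*, against 37.8, 45.7 and 38.0 FPKM in *bli* (-0.89 ± 0.10, adjusted p = 3.15e-04).

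Of the 5 genes taken as references 0 were called. Their log2 fold changes lay between -0.23 and 0.19, and 1, AT4G34270, passed adjusted p (0.0495).

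**Figure D5:**
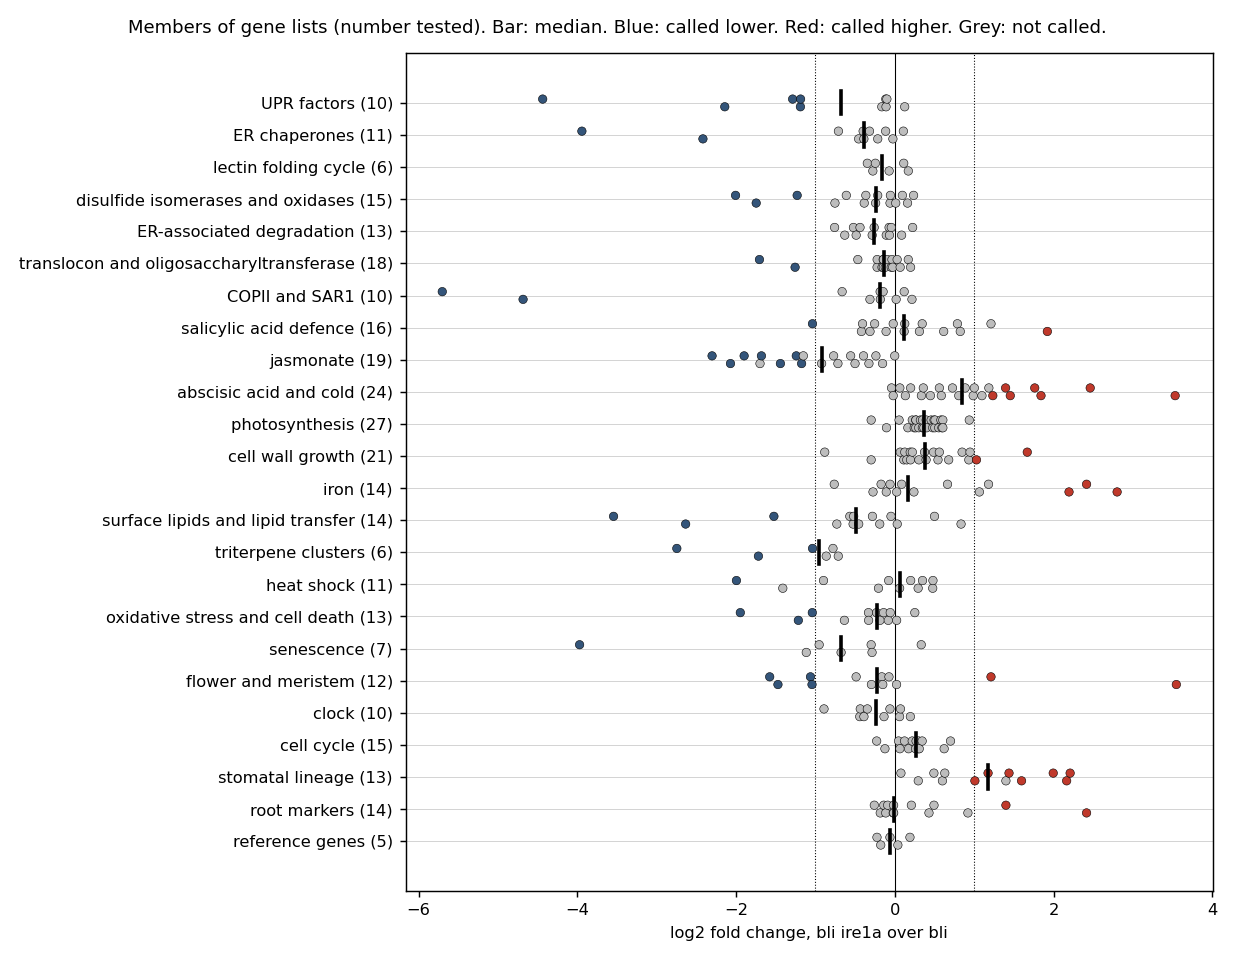
Each point is the log2 fold change of *bli ire1a* over *bli* (x axis) of a gene tested, by gene list (y axis, number tested in brackets). Black bars are medians, blue and red points are genes called lower and higher, and dotted lines mark a fold change of 2. The medians of the ER lists lie between -0.68 and -0.13, that of jasmonate at -0.92, that of abscisic acid and cold at 0.85 and that of the stomatal lineage at 1.17. The -0.68 is that of the UPR factors, which include the mutated gene *IRE1A*.

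Whether a difference from *bli* went with *IRE1A* more than with *IRE1B* was asked by comparing *bli ire1a* directly with *bli ire1b*, a difference that does not contain the *bli* means, although all 12 libraries share the estimate of the spread. Of the 420 lower genes, 173 (41.2%) were also lower than in *bli ire1b* at adjusted p of at most 0.05, where 5.3% of all genes tested were, and 3 were higher. Of the 417 higher genes, 181 (43.4%) were also higher than in *bli ire1b*, where 7.45% of all genes were, and 0 were lower. The members were called against *bli* in libraries that share *bli ire1a* with this comparison, so these shares are not independent of the calls. All 5 lower UPR factors passed this test. *IRE1A* is one of them and is mutated in *bli ire1a* but not in *bli ire1b*, so that its result followed from the genotype. *BIP3* (log2 difference -3.50, adjusted p = 8.6e-04), *PDIL1-2* (-1.88, adjusted p = 1.1e-08), *PDF1.2* (-2.03) and *EXT4* also passed. *JAZ7* and *HSFA2*, with -0.33 (adjusted p = 0.785) and 0.49 (adjusted p = 0.625), did not. *TMM* and AT4G31805 passed (1.26 and 1.49), but *SPCH* and *EPF2* did not, with 0.47 and 0.48 (adjusted p = 0.214 and 0.325), and their *bli ire1b* means of 7.04 and 5.63 FPKM lay between 9.99 and 7.72 FPKM in *bli ire1a* and 3.71 and 2.04 FPKM in *bli*.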

How the data were processed

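RNA was extracted with Trizol from whole seedlings of 4 genotypes, 3 libraries each, and sequenced after a TruSeq preparation. The deposited values are FPKM per gene and library, which the authors made by trimming reads (SeqPrep, Sickle), aligning them to TAIR10 with TopHat and quantifying with Cuffdiff. The submitters' processing notes instead name Bowtie 0.12.2 and the mouse build mm8, while the gene IDs are those of *Arabidopsis*. The files hold no read counts, so the count behind a value was not used, and low FPKM values are the least precise.

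All 12 libraries were fitted with limma 3.58.1 (R 4.3.3, trended variance, 8 residual degrees of freedom) on log2(FPKM + 0.1), for genes with a mean of 0.5 FPKM or more, and adjusted p-values are by Benjamini and Hochberg over all genes tested. Fold changes are on that scale and understate those of low genes. Exact permutation of 3 against 3 libraries cannot give a p below 0.1, so none is given. The limma p-values set a difference in means against the spread between libraries within all 4 genotypes, moderated across genes. The fit was also run on simulated data, with large changes planted only in genes above the lowest FPKM levels. That run does not cover genes of low FPKM or small differences. Genes were called at a fold change of 2 and unadjusted p of at most 0.05. No column of sample values was left unused (0).

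The naming rule took the mutated genes, the 15 largest falls and rises at adjusted p of at most 0.05 with a mean of at least 1 FPKM and no overlap of the groups, the 10 largest falls and rises in mean FPKM, up to 4 called members and the most abundant member of each list, and up to 4 called members of each family. Not all genes under this rule are named in the results. Those left out include *CRT1a*, *XTH4* and *SEN1*, with adjusted p of 0.227, 0.0992 and 0.0623. Other genes, among them list members that did not pass, were named after their values were seen. The comparison, the 24 gene lists and the families were chosen with earlier results of these data known, and the stomatal list after its values were seen. Families are searches of RefSeq product names. Positions and promoters are from the TAIR10.1 genome and its RefSeq annotation, which held 97.8% of the gene IDs. The alternatives, 17 in all, were other pseudocounts, filters, scalings, sets of libraries, a replicate block and each library left out.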

Additional observations from a re-analysis of the deposited data

Results flagged for a closer look

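The differences from *bli* were set against the direct difference between *bli ire1a* and *bli ire1b*, tested by limma in the same fit. Of the 420 genes lower in *bli ire1a* than in *bli*, 173 were also lower than in *bli ire1b* at adjusted p of at most 0.05, where 5.3% of all genes tested were. Of the 417 higher genes 181 were also higher, where 7.45% of all genes tested were. Both comparisons share the *bli ire1a* libraries, so these counts are not independent of the calls.

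Among the deepest falls from *bli*, the log2 difference of *bli ire1a* minus *bli ire1b* was -5.25 for AT1G18830, -3.55 for *SARA1A*, -4.25 for *NAC103*, -4.37 for AT4G21730 and -2.94 for *NATA1*. It was -5.33 for each of the DUF295 genes AT5G53240 and AT5G55270, -5.14 for AT5G53230 and -4.35 for AT5G54560. It was -4.95 for AT4G05370 and -4.75 for AT1G21528. *MT1B* and AT3G12840 were listed at 0 in all *bli ire1a* libraries, so that their values of -10.36 and -5.57 depend on the pseudocount and are no fold changes.

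Among the largest rises the same difference was 3.04 for AT2G47880, 3.16 for *PRB1*, 2.58 for *FLC*, 3.58 for *RL5*, 2.01 for *CYP82C4* and 1.63 for *FRO2*. It was smaller for *ATL15* (0.61) and its neighbour AT1G22510 (0.79), 2 genes that were also above *bli* in *bli ire1b*.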

How the results depend on the processing

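Up to 17 alternatives were run for counts of called genes and 14 or 15 for single genes. Genes under the naming rule that lost an adjusted p of at most 0.05 in an alternative kept the sign of their log2 fold change in it. Which direction held more called genes did change. It was 420 lower and 417 higher with the settings used above, and 428 lower and 458 higher with a pseudocount of 0.01. With a pseudocount of 1 the genes called higher in *bli ire1a* numbered 197 in place of 417, those also higher than in *bli ire1b* 116 in place of 181, and the higher members over all families 63 in place of 109, since a larger pseudocount shrinks the fold changes of genes with low FPKM. Leaving out 1 library at a time gave 382 to 496 higher and 388 to 456 lower genes, 126 to 205 also higher and 156 to 184 also lower than in *bli ire1b*, 99 to 133 higher and 102 to 126 lower family members, and 20 to 29 higher and 35 to 39 lower list members. Whether the replicate numbers pair the libraries is not given in the sources used here. Deviations of same-numbered *bli ire1a* and *bli* libraries correlated at 0.07, 0.03 and 0.08, and those of other pairs at -0.11 to 0.05. Deviations taken within groups of 3 libraries cannot decide the question. With the replicate block 426 genes were higher and 421 lower. By scaling, 466 genes were higher and 382 lower after upper-quartile scaling, and 337 were higher and 454 lower after quantile normalization. Genes passing adjusted p at any fold numbered 1052 lower without *bli ire1a* replicate 3, 897 higher without *bli ire1a* replicate 2, 1762 higher after upper-quartile scaling and 804 higher in a fit of only the 6 libraries. Of 184 genes under the naming rule with adjusted p of at most 0.05, 135 passed in every alternative run for them and 49 lost it in at least 1. These include genes that the results do not name. The files give no counts behind an FPKM value, which limits genes under about 1 FPKM most.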
